A study of Mus musculus with 11 samples.

Results

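The immunoglobulin genes of the mouse are the 268 of 54532 genes in the count table whose gene type is an immunoglobulin V, D, J, C or LV gene. They comprise 218 V genes, 19 D genes, 14 J genes, 13 C genes and 4 LV genes, and were chosen by gene type alone. By position, 146 lie in the heavy chain locus on chromosome 12, 110 in the kappa locus on chromosome 6 and 12 in the lambda locus on chromosome 16. They were read in 11 bulk RNA-seq libraries of splenic CD8+CD44+Ly49+CD122+ cells (CD8+ Tregs, a regulatory CD8+ T cell population) from untreated wild-type C57BL/6J mice. The young group, 2 to 3 months of age, had 3 male and 3 female libraries, and the middle-aged group, 10 to 12 months of age and labelled old in the deposit, had 2 male and 3 female libraries. The study compared the groups to learn how age changes the transcriptome of these cells. Cells were taken by positive selection on CD8 beads and then sorted on CD8, CD44, Ly49 and CD122, and no step to remove B cells was described for this sort.

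An antibody is made of heavy and light chains, and each chain joins a variable region to a constant region. B cells build the variable region by DNA recombination of a V, a D and a J segment in the heavy chain and of a V and a J segment in a light chain, kappa or lambda. A resting B cell makes IgM and IgD from the genes Ighm and Ighd, whereas a switched B cell or plasma cell makes IgG, IgA or IgE from an Ighg gene, Igha or Ighe. A clone of B-lineage cells as a rule expresses a single joined heavy chain V gene, so RNA from a few large clones falls on few V genes and RNA from many small clones is spread evenly. The heavy chain locus is also transcribed without a V gene, as germline RNA that holds the Ighm exons, and such RNA is known from early B cells and from T cells. Gene counts do not tell the joined and the germline kinds of Ighm RNA apart.

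V genes that took large shares of single libraries are shown first. Each line gives the last 60 bases of the coding exon of the germline gene, 5′ to 3′, with the codon of the conserved cysteine in capitals. The sequences are those of GENCODE M21 on GRCm38, in which all 268 genes had the coordinates given in the count table.
Ighv5-9-1, chr12:113736111-113736170, minus strand: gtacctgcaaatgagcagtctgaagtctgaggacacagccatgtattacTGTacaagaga
Ighv1-82, chr12:115952538-115952597, minus strand: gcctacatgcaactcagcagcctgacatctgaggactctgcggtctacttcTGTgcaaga
Igkv19-93, chr6:68736297-68736356, minus strand: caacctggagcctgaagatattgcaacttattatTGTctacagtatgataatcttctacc
Igkv17-121, chr6:68037259-68037318, plus strand: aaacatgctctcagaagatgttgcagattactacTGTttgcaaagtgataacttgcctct
Igkv4-72, chr6:69226854-69226913, minus strand: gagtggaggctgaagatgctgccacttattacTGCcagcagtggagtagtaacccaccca
Igkv4-55, chr6:69607275-69607334, minus strand: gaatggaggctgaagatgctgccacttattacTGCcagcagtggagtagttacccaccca
The last pair shows how alike V genes can be: over these 60 bases Igkv4-72 and Igkv4-55 differ at 2. Over all 218 V genes, a median of 44.5% of the 31-base words of a gene also occur in another V gene or V pseudogene, so the split of counts between related V genes is uncertain. Igkv19-93 shares 0% of its words, Ighv5-9-1 30.8%, Igkv17-121 46.3%, Igkv4-72 57.5% and Igkv4-55 78.2%. Among the constant genes Ighm, Ighd, Igha and Igkc share 0% of their words with the others, Ighg2b 9.15%, Ighg2c 15.2%, Iglc2 24.8% and Iglc3 25.1%.

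The libraries held 6135736 to 24394532 counts, and the shallowest were young male 1 and young female 1, the only libraries under 10000000 counts. Middle-aged female 2 stood apart from the others: the summed level of 11 myeloid markers was 2684 CPM (counts scaled to 1000000 per library) there and at most 353 CPM elsewhere. It was also the library with the most immunoglobulin counts, so results are given with and without it. The summed level of 15 CD8 T cell markers was 9844 to 20287 CPM over the 11 libraries. All p-values measure the spread between these libraries, which the labels number within age and sex without saying whether each is 1 animal. In bulk samples, fewer cells of a type and less RNA per cell cannot be told apart.

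Of the 268 genes, 231 had a count in at least 1 library and 37 had none. The 13 C genes and 198 of the 218 V genes were detected, as were 12 of 14 J genes and 8 of 19 D genes, and the 4 LV genes were at 0 in every library. C genes took 87.6% of all immunoglobulin counts and V genes 12.0%. Ighm alone took 58.9%.

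The summed immunoglobulin level was much the same in 10 of the 11 libraries. It was 1583 CPM in the lowest young library, 1749 at the median and 2077 in the highest. It was 1920 and 1421 CPM in middle-aged males 1 and 2, and 1635, 4976 and 2209 in middle-aged females 1, 2 and 3. The age groups overlapped, and middle-aged female 2 was far above all others. The means were 1788 ± 184 (SD, n = 6) and 2432 ± 1453 CPM (SD, n = 5), and without middle-aged female 2 the older mean was 1796 ± 343 (SD, n = 4). On the log2 scale the older group was 0.29 higher, less than the 0.48 by which libraries of one age group spread (SD). This evenness came from Ighm. With Ighm left out, the sum ran from 192 to 608 CPM in young libraries and from 467 to 3264 CPM in middle-aged libraries. The log2 difference over all 11 libraries was 1.17. Without middle-aged female 2 the highest middle-aged value was 1043 CPM, and the age groups overlapped either way. The middle-aged mean was then 686 ± 270 CPM (SD, n = 4), against 423 ± 149 CPM (SD, n = 6) in young libraries. The log2 difference of the full sum was -0.21 in males alone and 0.66 in females alone, and the difference between the sexes was not tested.

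Ighm, the constant gene of IgM, took the most counts of all members in every library and varied little. Its level was 1067, 1335 and 1884 CPM at the lowest, the median and the highest of the 6 young libraries. In the middle-aged libraries it was 1172 and 954 CPM in males 1 and 2 and 1149, 1713 and 1166 CPM in females 1, 2 and 3. The groups overlapped over most of their range, and the highest library was young male 1. The log2 fold change was -0.15 (SE 0.23), with an adjusted p of 1.00 in edgeR's quasi-likelihood test and p = 0.429 in an exact two-sided permutation test over the libraries. Ighd, spliced from the same primary transcript as Ighm in naive B cells, ran from 41.9 to 119 CPM in young and from 43.5 to 116 CPM in middle-aged libraries, with a log2 fold change of -0.38 (SE 0.32, edgeR adjusted p = 1.00). Young male 1, highest for Ighm, was lowest for Ighd.

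**Figure D1:**
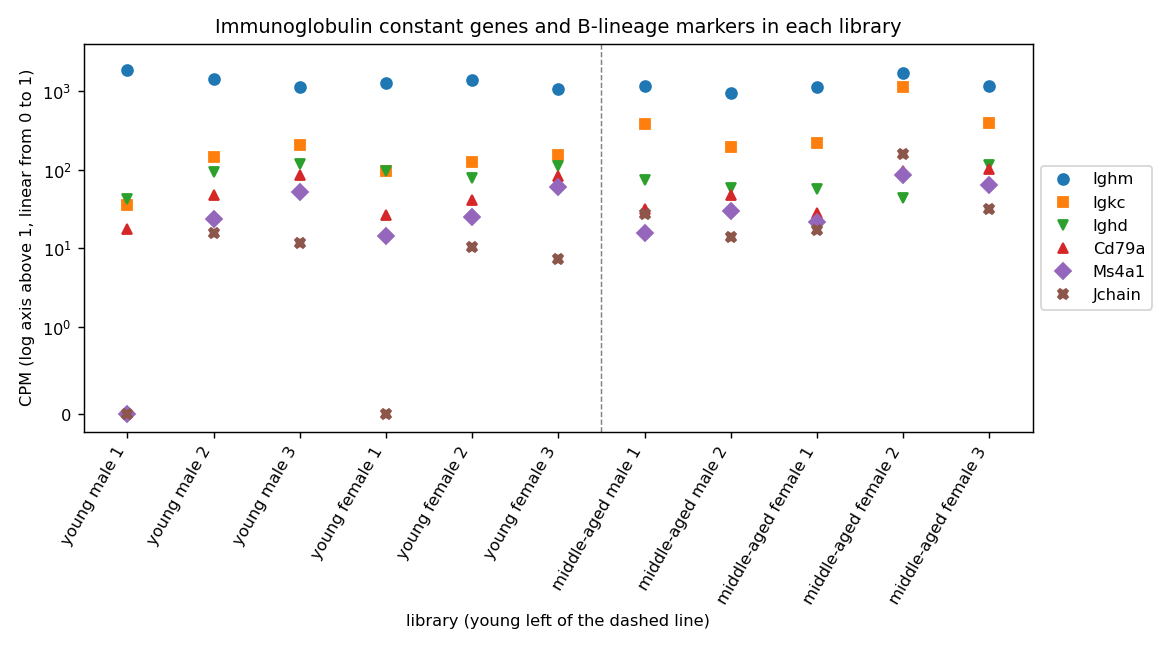
Levels of 3 constant genes (Ighm, Igkc, Ighd) and 3 B-lineage markers (Cd79a, Ms4a1, Jchain) in each of the 11 libraries, in CPM on an axis that is logarithmic above 1 and linear from 0 to 1, each point being 1 library and the dashed line parting young from middle-aged. Ighm stays between 954 and 1884 CPM, whereas Igkc runs from 35.4 to 1129 CPM and Ms4a1 from 0 to 85.0 CPM.

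Ighm counts were set beside B cell markers library by library. In young male 1, where Ighm was highest, the pan-B surface gene Ms4a1 (CD20) had 0 counts, which allows up to 0.542 CPM, as had the B cell regulator Pax5 and the plasma cell gene Jchain. In middle-aged female 3, with Ighm lower at 1166 CPM, Ms4a1 was at 64.5 and Jchain at 31.9 CPM. Per Ms4a1 count there were between 17.6 Ighm counts, in young female 3, and 89.8, in young female 1, and the ratio has no value in young male 1. Other listed genes were present in young male 1: Cd79a, a chain of the B cell receptor complex, was at 17.9 CPM and Cd22 at 24.9 CPM. Per Cd79a count there were 105 Ighm counts in young male 1 and 11.6 to 48.9 in the other 10 libraries. Of the 22 B cell markers, 8 were at 0 and 12 under 1 CPM in young male 1, and the source of its Ighm counts was not tested.

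The 22 B cell markers summed to 346 to 823 CPM in young and 481 to 1048 CPM in middle-aged libraries. The lowest sums were those of young female 1 and young male 1, at 346 and 351 CPM, and in young male 1 Cd72 and Cd79b alone gave 164 and 88.8 CPM of it. None of the 22 tested markers passed an adjusted p of 0.05 between ages in edgeR, and 0 had an unadjusted p under 0.05. DESeq2 and limma voom each called 0 of them as well. Their median log2 fold change was 0.29, and 0.08 without middle-aged female 2, against 0.003 over all 13129 genes tested. Within each age the libraries differed widely: Ms4a1 was at 52.7 and 60.4 CPM in young male 3 and young female 3 and at 14.3 CPM in young female 1. The marker sums went with the library number in both ages. They were 823, 819 and 1048 CPM in young male 3, young female 3 and middle-aged female 3, and 346 to 600 CPM in libraries numbered 1. Libraries numbered 2 had 475 to 599 CPM, apart from middle-aged female 2 at 1038 CPM. Cd22, an inhibitory receptor of B cells, had a log2 fold change of 1.54 (SE 0.73, permutation p = 0.0325, exact and two-sided). Its 2 highest libraries were middle-aged females 2 and 3, at 237 and 162 CPM.

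The J and D segments of the heavy chain locus were counted also in libraries that held few V counts. Of 1136 counts on the 4 heavy chain J segments, 862 (75.9%) fell on Ighj1, and of 217 counts on D segments, 202 (93.1%) fell on Ighd4-1, the D segment that lies 695 bases upstream of Ighj1. The J segments are printed, on GRCm38 and from the minus strand, with the bases TGGGG, which begin the conserved tryptophan and glycine motif, in capitals.
Ighj1, chr12:113429781-113429833: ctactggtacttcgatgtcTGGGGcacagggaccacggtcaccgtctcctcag
Ighj2, chr12:113429468-113429515: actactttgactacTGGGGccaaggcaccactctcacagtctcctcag
Ighj3, chr12:113429085-113429132: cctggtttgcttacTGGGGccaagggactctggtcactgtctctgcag
Ighj4, chr12:113428514-113428567: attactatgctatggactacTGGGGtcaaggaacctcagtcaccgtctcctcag
Ighd4-1 is 11 bases long, at chr12:113430528-113430538, so any sequencing read counted there also covers the bases beside it, and the counts do not show what they are. Ighj1 was at 9.75, 8.06 and 5.87 CPM in young males 1 to 3 and at 2.08, 5.80 and 4.43 CPM in young females 1 to 3. It was at 3.13 and 2.65 CPM in the middle-aged males and at 2.12, 3.13 and 2.32 CPM in the middle-aged females. Of the 6 young libraries, 5 were above all 5 middle-aged ones, and young female 1 was the lowest library of all. The log2 fold change was -1.03 (SE 0.45, edgeR p = 0.0398, adjusted p = 1.00, exact two-sided permutation p = 0.0281). Ighd4-1 was at 1.43 to 2.11 CPM in 5 young libraries, 0.139 CPM in young female 1 and 0.0529 to 0.766 CPM in middle-aged libraries, with a log2 fold change of -1.90 (SE 0.75, edgeR p = 0.0264, adjusted p = 1.00, exact two-sided permutation p = 0.0519). It rests on 202 counts in all, and 2 libraries had 1 count each. Neither gene passed the adjusted threshold.

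Heavy chain V counts did not go with these segments in the libraries at the extremes. Young male 1 had 21 V counts and 54 J counts in the heavy chain locus, whereas middle-aged female 2 had 8110 V counts and 92 J counts. Elsewhere the counts, which also follow depth, rose roughly together within an age. Young female 1 had 53 V and 26 J counts, young female 2 had 658 and 157, and young male 2 had 1059 and 213. Middle-aged female 1 had 338 and 41 and middle-aged male 1 had 703 and 97, but middle-aged female 3 had 2308 and 74. Per 100 Ighm counts there were 0.201 heavy chain V counts in young male 1 and 0.573 in young female 1, the pair of shallow libraries. In the other 4 young libraries there were 1.89 to 4.64, and in middle-aged libraries 1.56 to 9.37 apart from middle-aged female 2, which had 19.8. Age groups overlapped. Kappa V counts per 100 Igkc counts stayed between 42.8 and 64.7 in all 11 libraries, so Igkc went with its V genes and Ighm did not.

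**Figure D2:**
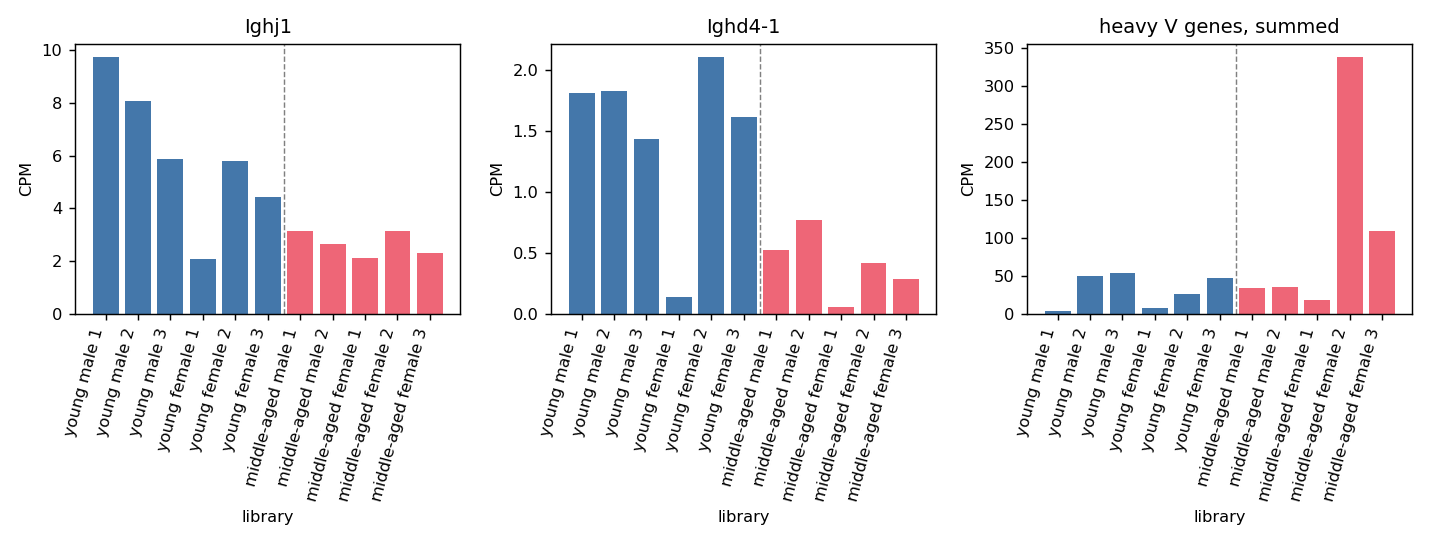
Bars give the CPM of Ighj1, of Ighd4-1 and of all heavy chain V genes summed in each library, young in blue and middle-aged in red, on axes that start at 0. Young male 1 has the tallest Ighj1 bar, at 9.75 CPM, and the shortest V bar, and middle-aged female 2 has by far the tallest V bar.

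Among the light chains, 4 of the 5 middle-aged libraries lay above all 6 young ones for the kappa constant gene Igkc, whereas the lambda constant genes overlapped fully. Igkc was at 35.4, 136 and 209 CPM at the lowest, the median and the highest of the young libraries. It was at 387 and 195 CPM in middle-aged males 1 and 2 and at 219, 1129 and 389 CPM in middle-aged females 1 to 3. The groups overlapped only by young male 3, which lay above middle-aged male 2. The means were 128 ± 58.4 (SD, n = 6) and 464 ± 383 CPM (SD, n = 5). The log2 fold change was 1.75 (SE 0.52, edgeR p = 0.00595, adjusted p = 0.683, exact two-sided permutation p = 0.00649). Without middle-aged female 2 it was 1.22 (SE 0.42), in males alone 1.16 (SE 0.72) and in females alone 2.22 (SE 0.61), and over all alternatives its adjusted p ran from 0.0677 to 1.00. Per kilobase, Igkc was at 66.5 to 392 CPM in young libraries, below Ighm in each of them, and in middle-aged male 1 and middle-aged females 2 and 3 it was above Ighm by 1.17, 2.34 and 1.18 times.

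Igkc counts per 100 Ighm counts were 1.88 to 18.3 in young and 19.0 to 65.9 in the older group. There was no overlap between ages, but the gap was narrow. Per Ms4a1 count there were 2.54 to 6.75 Igkc counts in the 5 young libraries with Ms4a1 counts, and 6.02 to 24.4 in middle-aged ones, and the groups overlapped. Per Cd79a count there were 1.82 to 3.68 in young and 3.85 to 12.1 in middle-aged libraries, with no overlap. Per Jchain count there were 9.36 to 21.2 in the 4 young libraries with Jchain counts and 7.11 to 14.1 in middle-aged ones, and the groups overlapped.

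The lambda constant genes Iglc1, Iglc2 and Iglc3 had log2 fold changes of 0.30, 0.18 and -0.15 (SE 0.40, 0.36 and 0.33, edgeR adjusted p = 1.00 each). Iglc2, the most counted of them, was at 14.4 to 37.0 CPM in young and 16.3 to 62.2 CPM in middle-aged libraries, and at 34.5 CPM in young male 1, where Ms4a1 was at 0. Iglc4 had 8 counts in all. Mouse B cells use kappa far more than lambda, and the ratio of kappa to lambda constant counts was 0.645 in young male 1, where lambda exceeded kappa. It was 1.17 in young female 1 and 3.73, 3.59, 3.55 and 2.14 in young male 2, young male 3, young female 2 and young female 3. It was 9.18 and 4.73 in the middle-aged males and 4.04, 10.1 and 4.41 in the middle-aged females. The lowest middle-aged value, in female 1, was above the highest young value, in male 2. The log2 ratio was 1.54 higher in the middle-aged group, against a spread within age groups of 0.89 (SD), and 0.92 higher among libraries over 10000000 counts. No p is given for this ratio, which is a description.

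**Figure D3:**
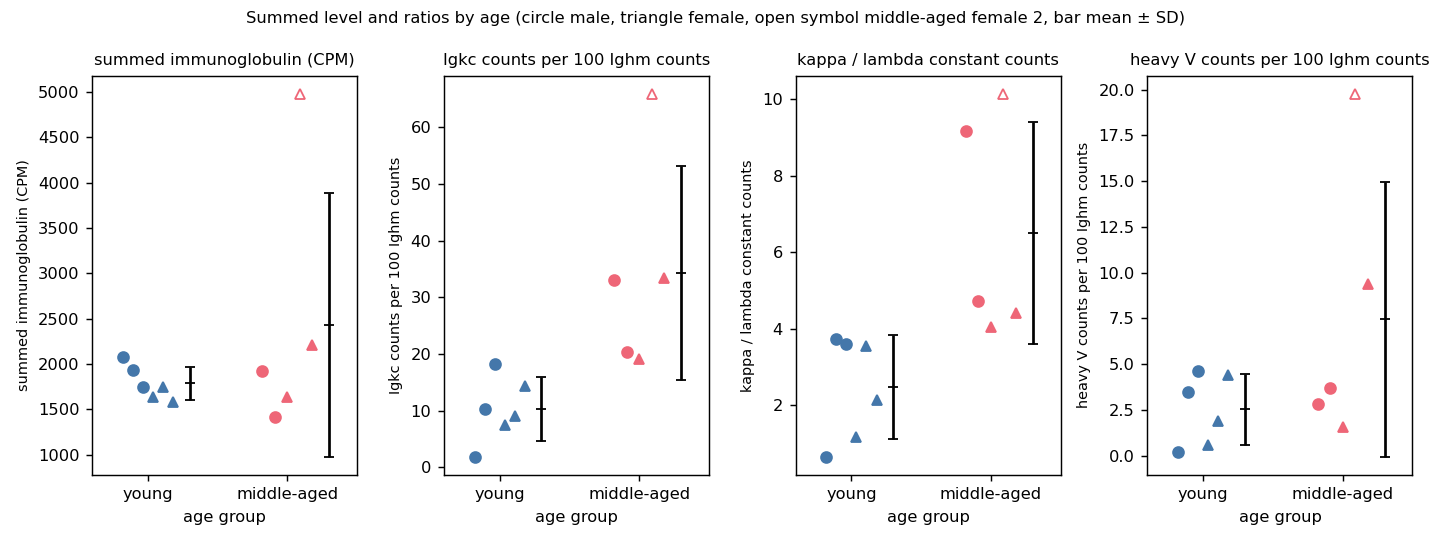
Summed level and ratios by age group, each point 1 library (circles male, triangles female, the open symbol middle-aged female 2), with the mean ± SD beside the points: summed immunoglobulin level in CPM, Igkc counts per 100 Ighm counts, the ratio of kappa to lambda constant counts, and heavy chain V counts per 100 Ighm counts. The age groups overlap in the first and last panels, and in the kappa to lambda panel the middle-aged libraries start at 4.04, above the young maximum of 3.73.

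IgM made up most heavy chain constant counts in every library. Its share was 89.9 to 97.8% in young libraries, 93.0 and 93.1% in the middle-aged males, and 94.2, 59.8 and 85.2% in middle-aged females 1 to 3. The share of IgD was 2.18 to 9.50% in young and 1.52 to 8.50% in middle-aged libraries. IgE, from Ighe, had 29 counts in all. These are shares of counts, not of cells.

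Switched classes differed most between libraries. IgG was 31.7% of heavy chain constant counts in middle-aged female 2 (95% exact binomial interval 31.3 to 32.0%, counting error only), 5.82% in middle-aged female 3 and 3.80% in young male 2. It was 1.07, 0.593 and 1.04% in the other middle-aged libraries, and in the other young libraries it was at most 0.509%. Young male 1 and young female 1 had 0 IgG counts, which allows up to 0.0281 and 0.0302% of their heavy chain constant counts. IgA was 7.06% in middle-aged female 2 (95% exact binomial interval 6.87 to 7.26%) and at most 0.535% in the others. All switched classes together were 0 to 3.82% of the counts in young and 1.13 to 38.7% in middle-aged libraries, or 1.13 to 6.29% without middle-aged female 2. Without young male 2 the young maximum would be 0.572%, but with it the groups overlapped.

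The gene behind the switched counts changed from library to library. In middle-aged female 2 Ighg1 was at 504, Ighg2b at 389 and Igha at 202 CPM, in middle-aged female 3 Ighg2b led with 62.2 CPM, and in young male 2 nearly all were on Ighg2c, at 59.0 CPM. Ighg2b had the smallest p between ages of all members. It had 0 counts in young males 1 and 2 and young females 1 and 2, 12 counts (0.572 CPM) in young male 3 and 1 count in young female 3. It was at 6.31 and 4.07 CPM in the middle-aged males and at 5.50, 389 and 62.2 CPM in the middle-aged females. All 5 middle-aged libraries lay above all 6 young ones. The means were 0.105 ± 0.230 (SD, n = 6) and 93.5 ± 167 CPM (SD, n = 5), or 19.5 ± 28.5 (SD, n = 4) without middle-aged female 2. Its fitted log2 fold change was 8.15 (SE 1.75), a value that rests on few young counts, with an edgeR p of 0.000587 and an adjusted p of 0.321, and the exact two-sided permutation p was 0.00216, the smallest these libraries can give. DESeq2 called it with an adjusted p of 6.63e-05, whereas the range over all alternatives ran from that value to 1.00.

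Igha and Ighg1 had log2 fold changes of 5.14 (SE 1.54, edgeR adjusted p = 0.687) and 5.41 (SE 1.90, adjusted p = 1.00), and for both the groups overlapped. Without middle-aged female 2 the log2 fold changes were 2.76 (SE 1.26) for Igha and 2.48 (SE 1.55) for Ighg1. Ighg2c, led by young male 2, had a log2 fold change of 3.19 (SE 3.88, adjusted p = 1.00) although its mean was higher in young libraries, 10.5 ± 23.8 (SD, n = 6) against 3.03 ± 2.31 CPM (SD, n = 5), so no direction can be read. Of the 8 germinal centre and class switch markers, 5 were tested and 1, Mef2b, had an unadjusted edgeR p under 0.05, where 2.00% of all genes had such a p with the older group higher. Mef2b was at 21.6 CPM in middle-aged female 2, and without that library 0 of the 5 had such a p. The same library held the 2684 CPM of myeloid markers given above, and the part of other cells in its switched counts was not tested.

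**Figure D4:**
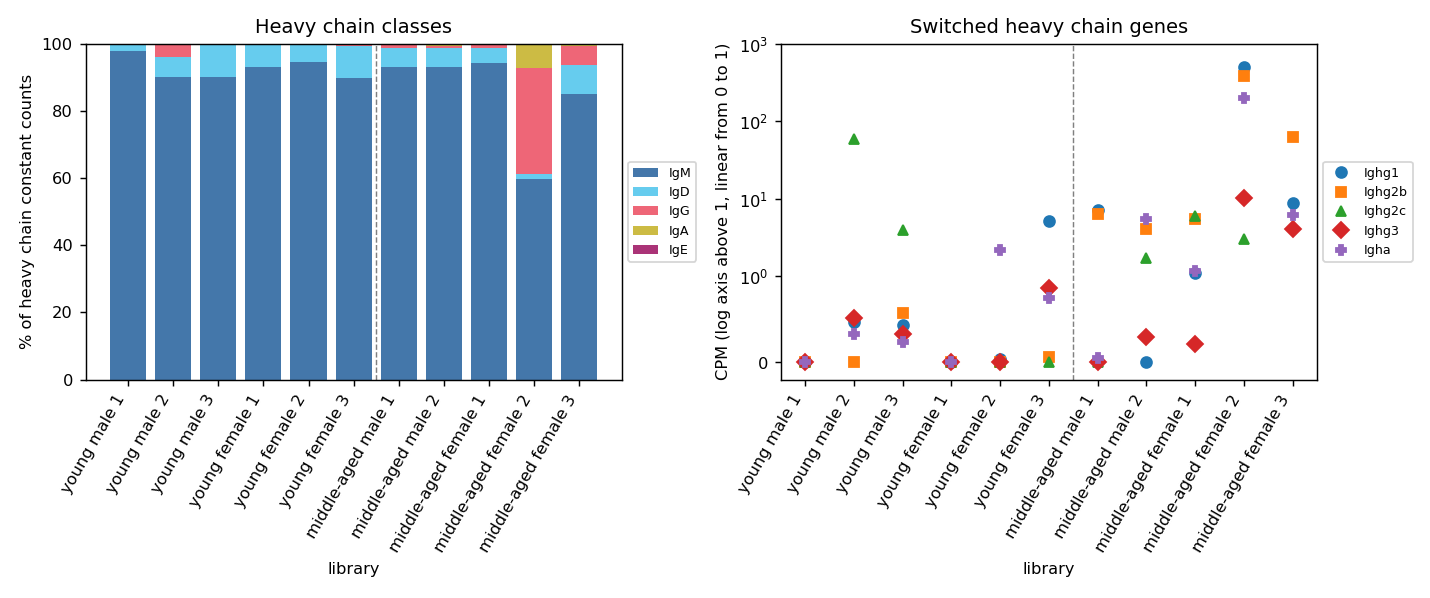
Left, the share of each heavy chain class in the heavy chain constant counts of each library, in percent, as stacked bars. Right, the CPM of the switched genes Ighg1, Ighg2b, Ighg2c, Ighg3 and Igha, each point 1 library, on an axis logarithmic above 1 and linear from 0 to 1. Middle-aged female 2 has 31.7% IgG and 7.06% IgA, and Ighg2b lies above 4 CPM in all 5 middle-aged libraries and under 1 CPM in all 6 young ones.

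Jchain, which links the units of secreted IgM and IgA and marks plasma cells, was at 0 counts in young male 1 and young female 1 and at 7.25 to 15.7 CPM in the other 4 young libraries. It was at 27.4 and 13.8 CPM in the middle-aged males and at 17.2, 159 and 31.9 CPM in the middle-aged females. The groups overlapped by young male 2, and the log2 fold change was 2.54 (SE 1.17, edgeR p = 0.0516, adjusted p = 1.00, exact two-sided permutation p = 0.0260). Without middle-aged female 2 it was 1.61 (SE 1.06, edgeR adjusted p = 1.00). Other plasma cell genes did not stand out. Of the 16 listed, 14 were tested, 0 passed an adjusted p of 0.05 in edgeR, DESeq2 or limma voom, 0 had an unadjusted edgeR p under 0.05, and the median log2 fold change was 0.25. Several of them, such as Xbp1, Sec11c and Ssr4, were at 83.6 CPM or more in every library, young male 1 included, so their summed level does not measure plasma cells. Mzb1, a chaperone of antibody-secreting cells, was at 38.3 CPM in middle-aged female 2 and at most 12.0 CPM elsewhere. Of 7 B cell precursor genes, Rag1, Rag2, Igll1 and Vpreb2 had 0 counts in all 11 libraries. Vpreb1, part of the surrogate light chain, had 159 counts and was at 0 to 1.51 CPM, Dntt was at 0 to 2.62 CPM, and Il7r, which T cells also use, was at 248 to 648 CPM.

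V genes showed the sharpest differences between single libraries. In middle-aged female 2, Ighv5-9-1 took 4194 of 8110 heavy chain V counts, or 51.7% (95% exact binomial interval 50.6 to 52.8%), and Igkv17-121 and Igkv4-72 took 25.4 and 22.7% of 11585 kappa V counts. In middle-aged male 1, Ighv1-82 took 55.0% of 703 heavy chain V counts and Igkv19-93 took 56.8% of 3841 kappa V counts (95% exact binomial interval 55.2 to 58.3%). In young male 2, Ighv5-9-1 took 39.7% of 1059 heavy chain V counts, and the leading kappa V gene, Igkv4-55, took 17.8%. So 1 heavy chain V gene led strongly in libraries of both ages, and the same gene, Ighv5-9-1, led in 1 young and 1 middle-aged library. It took at most 3.77% of heavy chain V counts in the other 9 libraries.

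The leading gene differed between most libraries. Ighv6-3 led in young male 3 and young female 3 with 10.7 and 14.9%, Ighv5-16 in young female 2 with 31.6%, Ighv5-6 in middle-aged male 2 with 7.65%, Ighv5-17 in middle-aged female 1 with 13.3% and Ighv3-6 in middle-aged female 3 with 18.9%. Ighv1-59 led in young female 1 with 18 of 53 counts, and the 21 counts of young male 1 were split evenly between Ighv1-23, Ighv1-72 and Ighv1-74. The heavy chain V genes with the highest mean level were Ighv5-9-1, Ighv1-50, Ighv3-6, Ighv1-81 and Ighv1-53. Ighv1-50 was at 40.7 CPM in middle-aged female 2 and at most 1.73 CPM elsewhere, and in the same library Ighv1-81 and Ighv1-53 had their highest levels, 12.1 and 12.0 CPM. The leading kappa V gene was Igkv1-117 in young male 3 (8.66%), Igkv8-27 in young female 1 (10.6%), Igkv9-120 in young female 2 (21.6%), Igkv5-39 in middle-aged male 2 (8.11%) and Igkv4-55 in middle-aged female 1 (14.1%). Igkv12-46 led in young female 3 (9.78%) and middle-aged female 3 (10.5%), and tied with Igkv19-93 in young male 1 at 15 counts each. Igkv19-93, Igkv4-72, Igkv17-121, Igkv12-46 and Igkv6-15 had the highest mean levels, and Igkv6-15 was at 0 to 13.0 CPM in young and 3.54 to 13.9 CPM in middle-aged libraries. Igkv19-93 was at 103 CPM in middle-aged male 1 and at 0.795 to 6.82 CPM in the other 10. Igkv17-121 was at 123 CPM in middle-aged female 2 and at most 1.94 CPM elsewhere. Igkv4-72 was at 110 CPM in middle-aged female 2, 13.8 CPM in middle-aged female 3 and at most 2.78 CPM elsewhere. The lambda locus has 3 V genes, and Iglv1 led in 10 libraries with 46.5 to 78.3% of lambda V counts, whereas Iglv2 led in young male 1 with 59.2%.

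Evenness was measured as the probability that 2 counts drawn from a library fall on the same V gene, in libraries with at least 50 V counts of the locus, so that a low value means an even spread. For heavy chain V genes it was 0.179, 0.0411, 0.239, 0.146 and 0.0401 in the 5 young libraries with enough counts (young males 2 and 3 and young females 1 to 3). It was 0.312 and 0.0316 in the middle-aged males and 0.0574, 0.291 and 0.0717 in the middle-aged females. The most and the least even libraries were both middle-aged males. Means of 0.129 ± 0.0873 (SD, n = 5) and 0.153 ± 0.137 (SD, n = 5) differed by less than the spread, and without middle-aged female 2 the older mean was 0.118. The young value of 0.239 rests on the 53 counts of young female 1. Without that library the difference of means was 0.0513 in place of 0.0238, still below the spread of 0.115. For kappa V genes the range was 0.0280 to 0.105 in young and 0.0279 to 0.331 in middle-aged libraries, and again the means, 0.0660 ± 0.0332 (SD, n = 6) and 0.117 ± 0.127 (SD, n = 5), differed by less than the spread. Counts of 1 rearranged RNA are not independent, and the number of cells behind them is unknown.

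Few V genes were detected in the pair of shallow libraries. Young male 1 had counts on 3 heavy chain and 11 kappa V genes and young female 1 on 6 and 23. In the other 9 libraries there were 37 to 82 heavy chain and 55 to 87 kappa V genes. Middle-aged female 3, with 2308 heavy chain V counts, had 82 heavy chain V genes, and middle-aged female 2, with 8110, had 58.

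**Figure D5:**
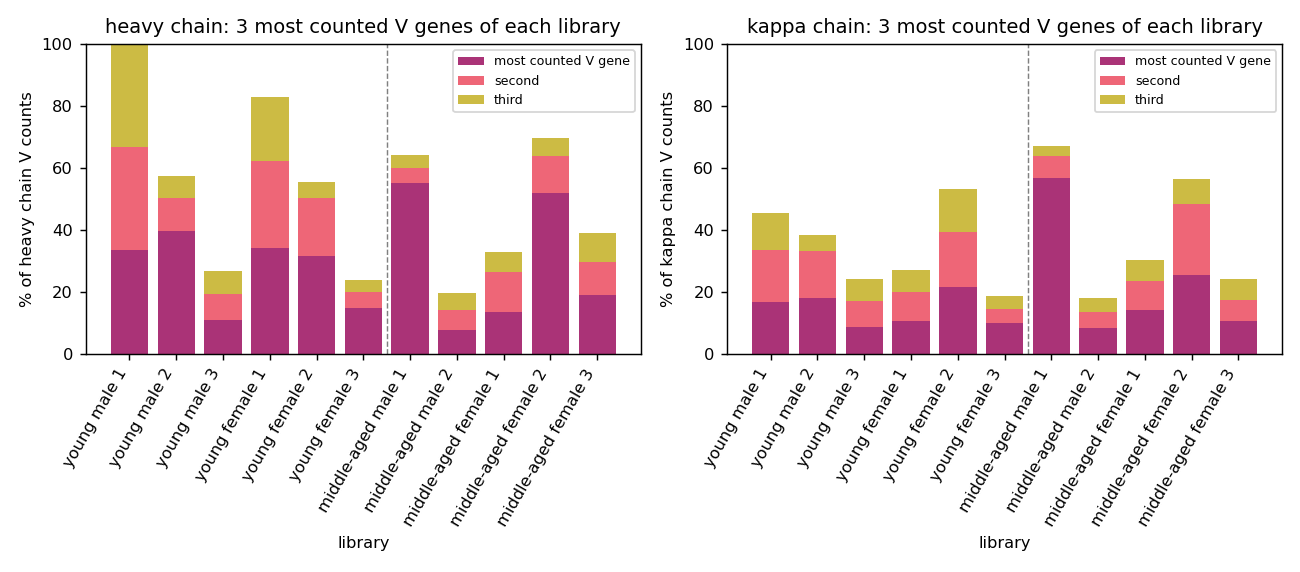
Stacked bars give the share of the 3 most counted V genes of each library in its heavy chain V counts (left) and its kappa V counts (right), in percent. The leading gene takes 55.0 and 56.8% in middle-aged male 1 and 51.7 and 25.4% in middle-aged female 2, and 7.65 and 8.11% in middle-aged male 2. The heavy chain bar of young male 1 rests on 21 counts.

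Across single genes, 86 of the 268 passed the filter on low counts and were tested with all 13129 genes. The filter keeps genes that are high in some libraries, so counts over these 86 are no test of the members as a group. In edgeR, 0 of the 86 passed an adjusted p of 0.05 between middle-aged and young, against 3 of all genes (0.0229%). At an unadjusted p under 0.05, the middle-aged level was above the young one for 6 members and below it for 2, where 2.00% of all genes lay above and 0.990% below. The 6 were Ighg2b, Igkc, Igha, Ighg1, Igkv19-93 and Igkv16-104 and the 2 were Ighd4-1 and Ighj1. DESeq2 called 1 member, Ighg2b, and 0.853% of all genes, and gave no p for Igha and Ighg1. Limma voom with sample quality weights called 0 members and 1.04% of all genes.

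Separation without overlap was seen for 2 members with the older group on top, Ighg2b and Ighv1-80, and for 0 with the young group on top, where 1.01% and 0.297% of all genes did not overlap in those directions. Ighv1-80, a heavy chain V gene named here after its values were seen, was at 0 to 1.04 CPM in young and 1.16 to 11.7 CPM in middle-aged libraries, with a log2 fold change of 2.59 (SE 1.32, edgeR adjusted p = 1.00). Of the 86 tested, 72 log2 fold changes were above 0 and 14 below, with a median of 0.82 against 0.003 over all genes. Without middle-aged female 2 the median was 0.53, in females alone 1.18 and in males alone -0.05. The interaction of age with sex gave 0 members at an adjusted p of 0.05 in edgeR and 7 of the 86 at an unadjusted p under 0.05, where 1.20% of all genes had such a p.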

How the data were processed

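Bulk RNA-seq libraries of FACS-sorted CD8+ Tregs were made by the authors with a SMARTer kit for low input. The authors deposited raw counts per gene for 54532 genes in 11 libraries. Their processing notes name kallisto and mm10 without a role. How reads shared by related genes were counted, and whether strand was used, is not given in the sources used here. Related V genes and Ighg and Iglc genes are therefore uncertain. Totals were 6135736 to 24394532 counts.

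Counts were scaled to CPM with TMM sizes and tested with edgeR 4.0.16 (quasi-likelihood, age with sex as a term, filterByExpr, Benjamini-Hochberg over 13129 genes) in R 4.3.3. DESeq2 1.42.0 and limma 3.58.1 were alternatives, and exact permutation tests used 462 splits. Only the edgeR test of age was checked on simulated counts, which held no effect of sex, library number or an outlying library. The check therefore does not cover these features of the data. Summed level (log2 of CPM plus 0.1), class shares, kappa to lambda ratio (0.5 counts added on the log2 scale) and evenness are descriptions with no test. Intervals and limits for 0 (3 counts) cover counting error only. Named genes were taken by rule from all C genes, the 5 most abundant V genes of each locus, the leading V gene of each library, members called in edgeR, up to 5 members each way with the smallest p, and genes of the marker lists. Members and lists were chosen with earlier results of these data known. The alternatives were other normalizations, filters and tools, other definitions of the summed level, class shares, chain ratio and evenness, a replicate block, each sex alone and each library left out. The closing section names only part of them. Libraries over 10000000 counts alone, and the sum without Ighm, were added after seeing the data.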

Additional observations from a re-analysis of the deposited data

Results flagged for a closer look

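Of 40 sets of values (a measure in 1 age group), 15 had 1 library so far from the others that its gap to the next, divided by the range of its group, passed Dixon's limit. Chance alone flags about 1 in 20 groups, and the sets share counts.

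Middle-aged female 2 was the library in 9 of them. Its summed level was 4976 CPM, with 2209 CPM in the next library, and its IgM share was 59.8%, its IgG share 31.7% and its IgA share 7.06% of heavy chain constant counts. Ighm was at 1713 CPM, Igkc at 1129 CPM, Ighg1 at 504 CPM, Ighg2b at 389 CPM and Igha at 202 CPM.

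In the young group, young male 2 stood apart with an IgG share of 3.80% and Ighg2c at 59.0 CPM. Young female 3 had Ighg1 at 5.12 CPM, young male 3 had Ighg2b at 0.572 CPM and young female 2 had Igha at 2.18 CPM. Young female 1 was low for Ighd4-1, at 0.139 CPM from 1 count.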

How the results depend on the processing

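The number of members called between ages was 0 in edgeR and stayed 0 with median-of-ratios factors, library size alone, no filter beyond 1 count, no sex term, each sex alone, limma voom and libraries over 10000000 counts. It was 1 (Ighg2b) in DESeq2, and 0 to 1 when single libraries were left out, the 1 being Ighg2b without young male 3. Ighg2b then had a log2 fold change of 12.26 (edgeR adjusted p = 0.0365, with 6.63e-05 to 1.00 over its alternatives). It had 13 counts in all young libraries together, and young male 3 was the highest of them at 0.572 CPM. The value without that library therefore rests on still fewer young counts. The summed level, 0.29 on the log2 scale, was 1.26 for V genes alone, 1.17 without Ighm and -0.21 in males alone. The values of 1.26 and 1.17 include middle-aged female 2. The summed level was -0.01 to 0.45 when single libraries were left out, the lowest being without middle-aged female 2. The IgG share difference, 7.25 percentage points, was 1.34 without that library and 13.5 with counts pooled. Ighm turned from -0.15 to 0.12 in females alone. The kappa to lambda difference stayed positive, at 0.92 to 1.71, and no other description moved by more than the spread between libraries. Same-numbered libraries of the 2 ages deviated together with r of 0.03 to 0.43, all positive, but not over 0.1 in every pair. The pair under 0.1, with r of 0.03, was that of the females numbered 2, which holds middle-aged female 2. On this ground the main model has no term for the number. Its SEs and p-values therefore include any spread between libraries that goes with the number. The TMM scaling factors still followed the numbers: 0.855 to 0.931 for number 1, 0.994 to 1.04 for number 2 and 1.11 for number 3. No middle-aged male library has number 3, and the labels do not say what the numbers stand for. With the replicate block, 0 members and 19 of all genes were called, where the main model called 3 of all genes. The summed level was then 0.29 and the kappa to lambda difference 1.47. Young male 1 and young female 1 are shallow, and a gene at 0 there may be at up to 0.542 and 0.416 CPM.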
